A study of Mus musculus with 12 samples.

Results

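The promoters of Eomes and Fgf9 were examined as CaptureC baits in mouse embryonic stem cells (ESCs). They are a pair of Polycomb target genes whose contacts with other Polycomb sites were listed from few reads and, for several, over long distances. Their interactions were taken as all entries of the interaction table whose bait fragment starts at the position given for either gene, which gave 21 of the 842 interactions of the series, 18 from Eomes and 3 from Fgf9. The 24 named baits held 414 interactions in all. Of the 21, 7 had an other end on a site that RING1B and PCGF2 occupy together, called a PCGF2 site, and 14 lay at other sites. The pair was selected on low weighted read numbers and long distances in these same data, so the values below describe these contacts and no test is attached to them.

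CaptureC crosslinks chromatin, cuts it with DpnII, joins ends that lie close together, and enriches the products that contain a chosen bait fragment. Each group is 1 value per interaction, pooled from 3 replicates, so no spread between replicates can be given. In the PRC1CPM line, clone 41, Ring1a carries the substitutions I50A and D53K in both PRC1CPM groups, and Rosa26::ERT2-Cre switches floxed Ring1b from wild type to a form with I53A and D56K once 4-hydroxytamoxifen (OHT) is added. One PRC1CPM group was untreated and the other received 800 nM OHT for 72 h. The PRC1DEG line expresses Tir1, lacks Ring1a (Ring1a-/-) and carries Ring1bAID, whose product is degraded with auxin. The Control line expresses Tir1 and has no degron. Both received 0.5 mM auxin for 6 h. The lines have strain E14 in common, and the auxin libraries come from an experiment separate from the PRC1CPM libraries, so levels are compared only within each experiment. PRC1DEG and Control cells differ in Ring1a as well as in the degron, and the parts of each in a difference cannot be told apart. Identity of the cells could not be checked against marker genes, since contact data hold no expression.

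Polycomb repressive complex 1 (PRC1) places ubiquitin on histone H2A through RING1A or RING1B. PCGF2 belongs to canonical PRC1, the form that carries chromobox and Polyhomeotic subunits and is known for bringing distant Polycomb sites together. In ESCs the sites with high Polycomb levels are often CpG-rich promoters of developmental genes with low transcription. Eomes encodes a T-box transcription factor of early mesoderm, endoderm and trophoblast, and Fgf9 encodes a secreted fibroblast growth factor.

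The bait sequences are shown because they set where each measurement begins. The Eomes bait was a DpnII fragment of 1467 bp at chr9:118478059-118479525 (GRCm38), which held the Eomes TSS and coding sequence and 125 CpG dinucleotides (85.2 per kb). The Fgf9 bait was a fragment of only 82 bp at chr14:58072609-58072690, with the Fgf9 TSS in its 3′ part and 5 CpGs. The 2 capture oligonucleotides of the Fgf9 bait shared 54 of their 70 bases, whereas those of Eomes lay at opposite ends of the fragment. Whether the short fragment bears on the low read numbers of Fgf9 was not tested. Capitals mark the DpnII site GATC, and all sequences are given on the plus strand of GRCm38, 5′ to 3′.
Eomes left oligonucleotide, chr9:118478059-118478128: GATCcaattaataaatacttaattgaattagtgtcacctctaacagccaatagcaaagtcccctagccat
Eomes right oligonucleotide, chr9:118479460-118479529: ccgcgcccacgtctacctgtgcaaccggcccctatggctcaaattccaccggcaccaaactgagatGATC
Fgf9 left oligonucleotide, chr14:58072609-58072678: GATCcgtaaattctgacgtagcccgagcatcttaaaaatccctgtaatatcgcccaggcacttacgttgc

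The other ends are shown next, since they differed in CpG content, which had no part in choosing them. For each, the stretch of 150 bases with the most CpGs outside annotated UTRs is printed, or the whole fragment where it was short, with every CpG in capitals. The first 5 are PCGF2 sites, and the last lies in the contact of the Eomes bait with the most reads, an other site without a protein-coding gene.
Ctdspl intron, whole fragment (Eomes bait), chr9:118927151-118927353: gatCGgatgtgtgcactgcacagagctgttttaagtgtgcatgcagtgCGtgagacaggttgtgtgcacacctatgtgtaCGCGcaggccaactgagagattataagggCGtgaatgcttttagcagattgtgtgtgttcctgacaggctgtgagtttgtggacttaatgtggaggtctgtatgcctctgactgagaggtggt
Zic1 promoter fragment (Eomes bait), chr9:91365813-91365962: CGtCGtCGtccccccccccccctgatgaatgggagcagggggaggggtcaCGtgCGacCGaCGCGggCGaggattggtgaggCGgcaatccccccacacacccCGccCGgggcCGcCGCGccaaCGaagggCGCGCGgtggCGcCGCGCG
Foxl2 upstream fragment (Eomes bait), chr9:98953674-98953823: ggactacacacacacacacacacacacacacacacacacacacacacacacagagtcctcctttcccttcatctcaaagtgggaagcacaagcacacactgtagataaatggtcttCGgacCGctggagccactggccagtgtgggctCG
Lats2 promoter fragment (Fgf9 bait), chr14:57745591-57745740: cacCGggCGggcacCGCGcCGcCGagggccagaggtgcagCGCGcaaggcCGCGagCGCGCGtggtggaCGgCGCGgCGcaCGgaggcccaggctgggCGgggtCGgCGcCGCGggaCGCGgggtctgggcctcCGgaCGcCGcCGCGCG
fragment nearest to Kcnrg (Fgf9 bait), chr14:61686926-61687075: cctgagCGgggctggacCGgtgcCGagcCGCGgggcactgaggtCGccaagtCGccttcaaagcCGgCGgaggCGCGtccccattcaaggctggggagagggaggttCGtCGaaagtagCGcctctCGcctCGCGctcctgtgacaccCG
other site near Eomes (Eomes bait), chr9:118391626-118391775: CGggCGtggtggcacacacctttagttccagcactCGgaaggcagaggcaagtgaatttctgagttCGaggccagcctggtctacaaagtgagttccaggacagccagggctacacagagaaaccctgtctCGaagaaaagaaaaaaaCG

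Over whole other ends, the Lats2 promoter fragment held 200 CpGs in 3310 bp (60.4 per kb) and the fragment nearest to Kcnrg 64 in 1047 bp (61.1 per kb). For the Eomes bait, the Foxl2 fragment with coding sequence had 92.0 CpGs per kb and the Zic1 promoter fragment 38.9. The remaining 3 were poorer, with 24.6 and 12.2 per kb in the pair of Ctdspl fragments and 10.6 in the fragment upstream of Foxl2. The 13 other sites of Eomes ranged from 7.24 to 20.6 per kb with a median of 10.5. Over all named baits the median was 29.1 per kb at 130 PCGF2 sites and 12.3 at 284 other sites. CpG density therefore overlapped between the site classes of the Eomes bait, and both PCGF2 sites of the Fgf9 bait lay above its range at Eomes other sites.

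Contacts of the Eomes bait with PCGF2 sites fell into a near pair and a far group on chromosome 9. The near pair lay 448 and 449 kb away in an intron of Ctdspl, which encodes a small phosphatase acting on the RNA polymerase II tail, within 0.289 and 0.663 kb of its TSS. The far group lay 19.5 Mb away at Foxl2, a forkhead factor of the ovary and eyelid, and 27.1 Mb away at Zic1, a zinc-finger factor of neural development that is paired head to head with Zic4. Values are given as weighted reads, the read counts as weighted in merging the replicates. They were recovered from the deposited normalized values as whole multiples of the smallest step. The methods of the study do not give the weights, so a weighted read need not be a single sequenced read. Normalized values, which adjust for library size, enter the ratios. Each of the 7 PCGF2 contacts of the pair reached the score of 5 needed for listing in 1 group only, untreated PRC1CPM or Control, so a lower value in the partner of that group was in part fixed by the listing.

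The shorter Ctdspl fragment, 203 bp at chr9:118927151-118927353, had 10 reads in untreated and 7 in OHT-treated PRC1CPM cells, and 21 in Control against 0 in PRC1DEG cells. After OHT the normalized level was lower by a log2 ratio of -0.39, with a 95% Wilson interval of -1.73 to 0.96 that includes 0. In PRC1DEG cells it was at least 7.49-fold lower than in Control cells, taking 3 reads as the floor that a count of 0 allows and the Control count as exact. With the counting error of both libraries, the upper Wilson bound was 17.1% of Control. Such intervals and floors treat weighted reads as plain counts and cover counting error only. They leave out the spread between replicates, since each group is 1 pooled value. Reads also carry no molecular identifiers. The longer Ctdspl fragment, 1147 bp at chr9:118927525-118928671, had 17, 12, 15 and 11 reads in the same order of groups. Its log2 ratio with OHT was -0.37 (interval -1.42 to 0.67), and that of PRC1DEG over Control was -0.55 (interval -1.64 to 0.55). After OHT the neighbours had close ratios. In the auxin experiment the longer fragment kept 68.5% of its Control level (interval 32.1% to 146%), and the shorter one had 0 weighted reads. Summed over both, 27, 19, 36 and 11 reads gave 76.9% of the untreated level with OHT (interval 43.1% to 137%), and PRC1DEG cells had 28.5% of Control (interval 14.7% to 55.4%).

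The Foxl2 fragment with coding sequence, chr9:98956780-98957279, had 5 reads in untreated and 2 in OHT-treated PRC1CPM cells, and 2 in Control against 0 in PRC1DEG cells. Its log2 ratio after OHT was -1.19 with an interval of -3.35 to 0.97. No ratio is given for the auxin experiment, where both values lay at or under the floor. The fragment upstream of Foxl2, chr9:98953387-98953954, had 0, 1, 4 and 0 reads. By the same floor, with the Control count as exact, its level in PRC1DEG cells was 1.43-fold lower than in Control cells (log2 ratio -0.51). With the counting error of both libraries the bound was weaker, at an upper Wilson bound of -0.16 on the log2 scale. The coding fragment was listed through untreated PRC1CPM cells alone and the upstream fragment through Control cells alone. The Zic1 promoter fragment, chr9:91365596-91366856, had 4, 1, 3 and 0 reads and a log2 ratio of -1.87 after OHT (interval -4.61 to 0.86). Together the 3 far contacts had 9, 4, 9 and 0 reads, which is 48.6% of the untreated level after OHT (interval 15.9% to 149%). By the floor, with the Control count as exact, they were 3.21-fold lower in PRC1DEG than in Control cells. With the counting error of both libraries the bound was weaker, at an upper Wilson bound of 39.9% of Control. PRC1DEG cells had 0 weighted reads at each of the 3.

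The Fgf9 bait reached 2 PCGF2 sites on chromosome 14, on opposite sides. The nearer was the promoter of Lats2, a kinase of the Hippo pathway, 328 kb away at chr14:57743367-57746676. It had 8 reads in untreated and 1 in OHT-treated PRC1CPM cells, and 11 in Control against 1 in PRC1DEG cells. The log2 ratio with OHT was -2.87 (interval -5.49 to -0.25), and that of PRC1DEG over Control was -3.56 (interval -6.15 to -0.97). Both intervals lay below 0, on 1 read in each treated group, and the contact was listed through its score in Control cells alone. The farther site, chr14:61686314-61687360, lay 3.61 Mb away outside protein-coding genes, with Kcnrg as the nearest protein-coding TSS at 78.8 kb. It had 2, 1, 4 and 0 reads. By the floor, with the Control count as exact, its level in PRC1DEG cells was 1.43-fold lower than in Control cells (log2 ratio -0.51). With the counting error of both libraries the bound was weaker, at an upper Wilson bound of -0.16 on the log2 scale. The only other site of Fgf9, 6.41 Mb away at chr14:64479734-64480238 with Msra as the nearest gene at 23.8 kb, had 0, 0, 0 and 3 reads, and the 3 are no more than the floor.

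**Figure D1:**
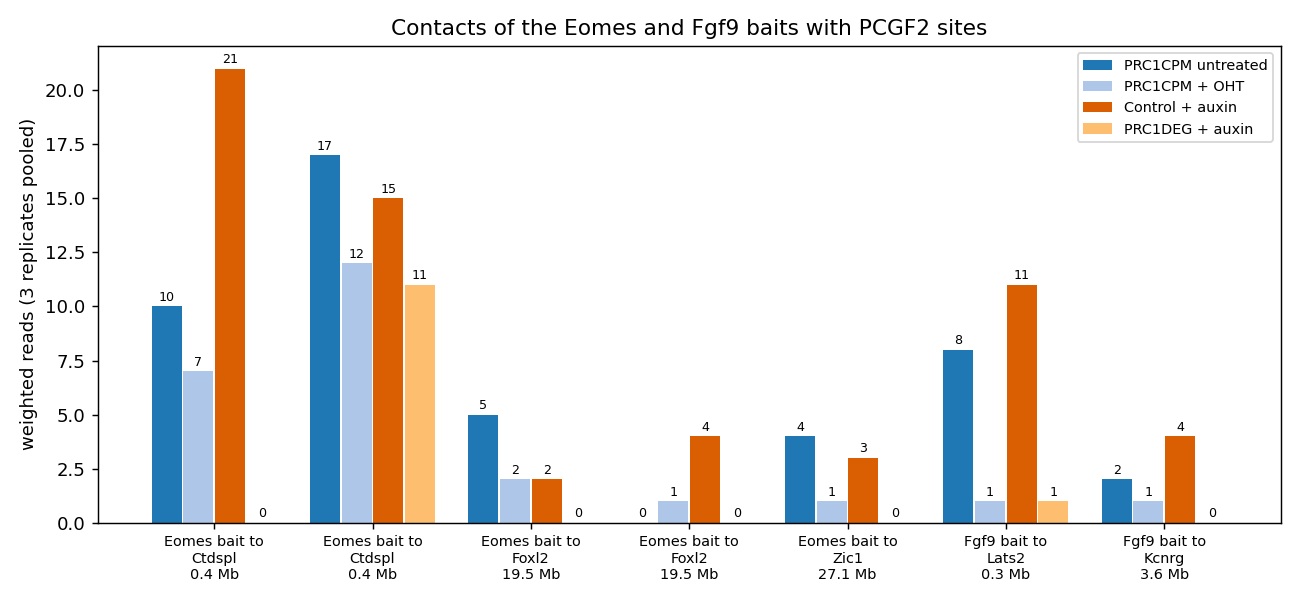
Weighted reads, pooled from 3 replicates, of each contact of the Eomes and Fgf9 baits with a PCGF2 site (bars, 1 per group, axis from 0, distance under each name). Reads in PRC1DEG cells were 0 at 5 of the 7 contacts, and 11 of the 12 reads left there lay on the longer Ctdspl fragment.

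Summed over its PCGF2 sites, the Eomes bait had 36 reads in untreated and 23 in OHT-treated PRC1CPM cells, and 45 in Control against 11 in PRC1DEG cells. The sum after OHT was 69.8% of the untreated level (interval 41.6% to 117%), and in PRC1DEG cells 22.8% of Control (interval 11.9% to 43.7%). As the median of single log2 ratios with values under 3 reads set to 3, the latter moved from -2.13 to -0.51. The Fgf9 bait had 10, 2, 15 and 1 reads, or 21.9% of untreated with OHT (interval 5.39% to 88.7%) and 6.23% of Control in PRC1DEG (interval 1.05% to 36.9%). By the same median its log2 ratios moved from -2.19 to -0.58 and from -4.01 to -1.24. The floor sets how low these medians can go. It raised every Fgf9 value after OHT and in PRC1DEG cells, and 4 of the 5 Eomes values in PRC1DEG cells, which were 0. Over the 7 contacts of both, 46, 25, 60 and 12 reads gave 59.4% (interval 36.7% to 96.2%) and 18.7% (interval 10.1% to 34.4%). The shorter Ctdspl fragment, the fragment upstream of Foxl2 and both Fgf9 sites were listed through Control cells alone. The remaining contacts were listed through untreated PRC1CPM cells alone. The listing therefore in part fixed all these lower sums, and their intervals do not cover it. For the 123 PCGF2 contacts of the other named baits the corresponding values were 54.4% and 33.9%. Through how many groups those were listed was not counted, so a stronger loss in the pair cannot be read from these values.

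With values under 3 reads set to 3, a 2-fold lower level after OHT was found at 1 of the 7 PCGF2 contacts, the Lats2 promoter, against 39.2% of PCGF2 contacts and 16.7% of all interactions of named baits. In PRC1DEG cells it was found at 2 of the 7, Lats2 and the shorter Ctdspl fragment, against 59.2% of PCGF2 contacts and 21.0% of all interactions. The 3-read floor leaves little room for such a call, as 2 of the 7 contacts were at or under 3 reads in untreated PRC1CPM cells and 2 in Control cells. After OHT 5 of the 7 were at or under it, and in PRC1DEG cells 6. Of the 123 contacts of the other named baits, 14 were at or under 3 reads in untreated PRC1CPM cells and 36 in PRC1DEG cells.

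The other sites of the Eomes bait formed a contrast in read number. All 13 lay on the side of Eomes away from Ctdspl, at 65.8 to 400 kb. The contact with the most reads, chr9:118387860-118405922 at 81.9 kb, spanned 27 DpnII fragments without a protein-coding gene, held the TSS of the noncoding gene 2610509F24Rik, and had 1330 reads in untreated and 1127 in OHT-treated PRC1CPM cells, and 789 in Control against 963 in PRC1DEG cells. The next, chr9:118371752-118383217 at 101 kb, spanned 18 fragments and had 552, 500, 352 and 453 reads. The third, chr9:118084169-118110628 at 381 kb, lay inside Cmc1, a gene for a mitochondrial protein needed for cytochrome c oxidase, and had 394, 343, 273 and 262 reads. The remaining 10 had between 17 and 176 reads in untreated PRC1CPM cells.

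After OHT the summed level of these 13 contacts was 94.3% of untreated (interval 89.3% to 99.6%), with 9 lower and 4 higher and no single interval clear of 0, whereas 7.39% of other sites of named baits had an interval below 0 and 0.00% above. The log2 ratio of this sum, -0.08, turned to 0.070 when centred on the other sites of all named baits. In PRC1DEG cells the summed level of the 13 was 113% of Control (interval 106% to 120%), with 3 lower and 10 higher. Other sites of all named baits summed to 89.8% of untreated after OHT and 99.6% of Control in PRC1DEG cells. Their median single log2 ratios, with values under 3 reads set to 3, were -0.17 and 0.072. Single baits went both ways in PRC1DEG cells, with 122% at Hcrtr1 and 115% at Ctdspl, and 62.7% at Sp5 and 67.1% at Fli1. A higher sum was thus not particular to Eomes. Intervals lay above 0 for 3 of the 13, against 6.69% of other sites of named baits, and below 0 for none, against 6.34%. None was 2-fold lower in either comparison, against 6.34% of other sites of named baits after OHT and 3.52% in PRC1DEG cells. None was 2-fold higher after OHT, against 1.41% of other sites and 0.966% of all interactions. One was 2-fold higher in PRC1DEG cells, the fragment chr9:118204540-118205262 with 24, 20, 8 and 19 reads, against 3.87% of other sites and 2.66% of all interactions. The 8 other sites made of 1 fragment, whose size is closest to that of the PCGF2 contacts, held 239, 221, 143 and 186 reads, or 101% of untreated with OHT (interval 84.2% to 121%) and 122% of Control in PRC1DEG (interval 97.8% to 151%).

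**Figure D2:**
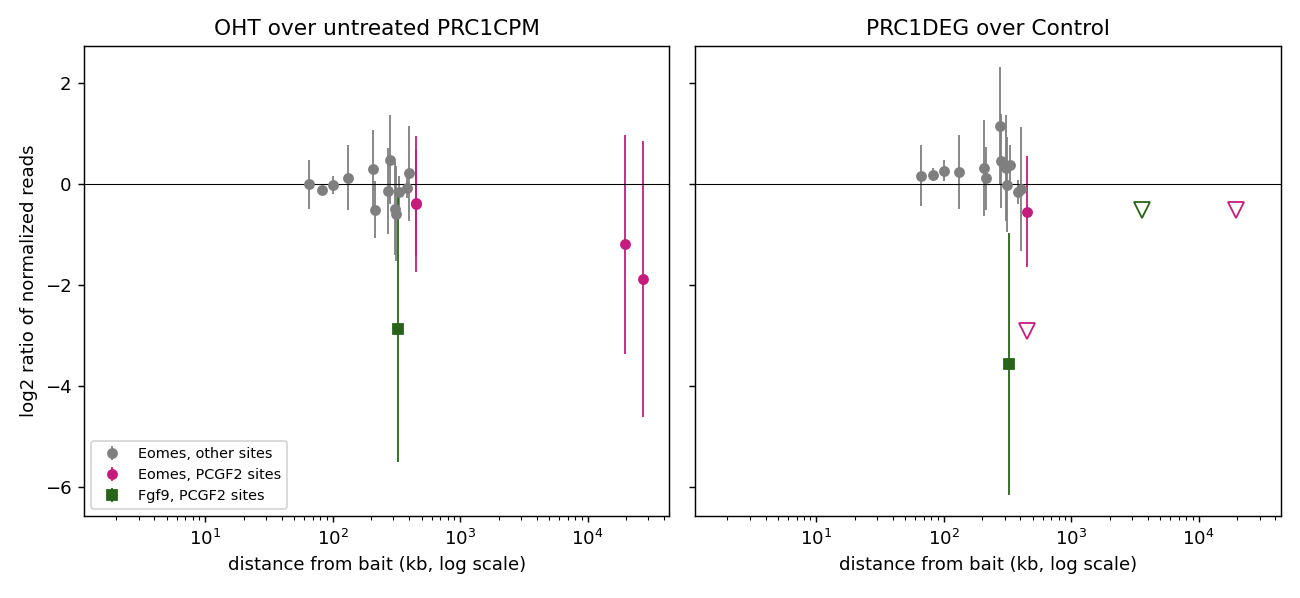
Log2 ratio of normalized reads against distance from the bait in kb (log axis) for single contacts of Eomes and Fgf9, after OHT (left) and in PRC1DEG over Control cells (right). Bars are 95% Wilson intervals, open triangles take 3 reads as the floor for a group at 0, and contacts at or under 3 reads in both groups are left out. Other sites of Eomes lie between -0.59 and 0.48 after OHT and between -0.16 and 1.15 in PRC1DEG cells, where 10 of 13 are above 0, and the plotted PCGF2 contacts sit below 0.

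PCGF2 sites took a small share of the reads in listed interactions of the Eomes bait. The share was 1.29% of 2789 listed reads in untreated PRC1CPM cells (95% Wilson interval 0.934% to 1.78%) and 0.959% of 2398 after OHT (interval 0.640% to 1.44%). In the auxin experiment it was 2.59% of 1735 in Control cells (interval 1.94% to 3.45%) and 0.536% of 2052 in PRC1DEG cells (interval 0.300% to 0.957%). These shares do not depend on how the libraries were scaled. The intervals overlapped in PRC1CPM cells and not in the auxin experiment, where the listing in part fixed the difference. Of the 45 PCGF2 reads in Control cells, 21 lay on the shorter Ctdspl fragment. That fragment was listed through Control cells alone and had 0 reads in PRC1DEG cells. In untreated PRC1CPM cells the shares of Igfbp5 (0.971%), Gata5 (2.57%) and Hcrtr1 (2.70%) were also small. Nkx2-1 had 95.9%, and all 10 listed reads of Fgf9 lay at PCGF2 sites.

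Interaction scores from CHiCAGO weigh the reads of a fragment against those expected at its distance, so a few far reads can score high. The Foxl2 coding fragment scored 10.0 in untreated PRC1CPM cells on 5 reads, above the 8.79 of the 1330-read contact of the same bait at its summit fragment. At the threshold of 5, the Eomes bait had 11 of 18 interactions called in untreated and 7 in OHT-treated PRC1CPM cells, 2 in Control and 0 in PRC1DEG. The Fgf9 bait had 0, 0, 2 and 1 of 3. Over all named baits 63.3% of interactions were called in untreated and 30.0% in OHT-treated PRC1CPM cells, 23.4% in Control and 7.97% in PRC1DEG.

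Among PCGF2 sites of Eomes, the longer Ctdspl fragment (5.53), the Foxl2 coding fragment and the Zic1 promoter (5.50) were called in untreated PRC1CPM cells and none after OHT. In Control cells the shorter Ctdspl fragment (7.63) and the fragment upstream of Foxl2 (8.55) were called, and none in PRC1DEG cells. No PCGF2 contact of Eomes was called in both untreated PRC1CPM and Control cells. How many contacts of the other baits were called in both was not counted. Over the 130 PCGF2 contacts of all named baits, the median score was 6.02 in untreated and 1.33 in OHT-treated PRC1CPM cells. In Control cells it was 5.14 and in PRC1DEG cells 0, so a loss of calls was not particular to Eomes. For Fgf9, Lats2 scored 3.48 in untreated PRC1CPM cells and 7.67 in Control cells, and the site nearest to Kcnrg 2.08 and 8.88. The Msra fragment scored 5.19 in PRC1DEG cells on its 3 reads.

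The Eomes and Ctdspl contact was also measured from the other end, as the Ctdspl promoter was itself a bait. That bait reached the fragment chr9:118479780-118480881 in the Eomes locus, a PCGF2 site, with 18 reads in untreated and 12 in OHT-treated PRC1CPM cells, and 24 in Control against 10 in PRC1DEG cells. The log2 ratio with OHT was -0.46 (interval -1.49 to 0.58), and that of PRC1DEG over Control was -1.36 (interval -2.40 to -0.32), so PRC1DEG cells held 38.9% of the Control level. The level was thus lower in PRC1DEG than in Control cells from both baits. From the Eomes bait, the interval of the longer Ctdspl fragment included 0 (-1.64 to 0.55). The shorter Ctdspl fragment, with 0 reads in PRC1DEG cells, was listed through Control cells alone. After OHT the intervals from both baits included 0. The same libraries gave both views, so they are not independent replicates. No contact was listed in either direction between Eomes and the Fli1 or Islr2 baits on chromosome 9, or between Fgf9 and the Zfp503 bait on chromosome 14. No other named bait reached within 10 kb of any of the 7 PCGF2 sites.

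**Figure D3:**
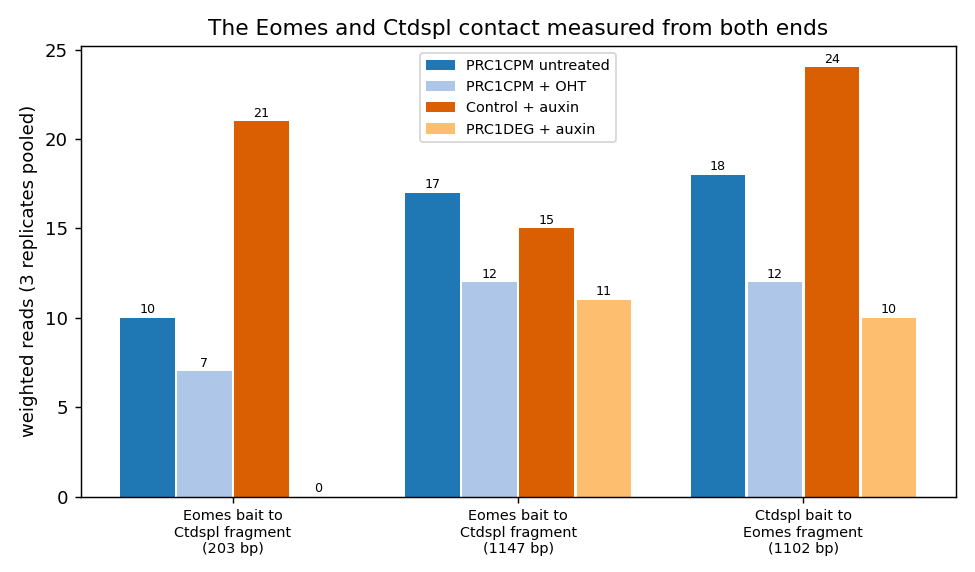
Weighted reads, pooled from 3 replicates, for the contact between Eomes and Ctdspl seen from the Eomes bait (both Ctdspl fragments) and from the Ctdspl bait (bars, 1 per group, axis from 0). PRC1DEG cells had 0, 11 and 10 reads, against 21, 15 and 24 in Control cells.

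Among the 22 named baits with PCGF2 contacts, Fgf9 had the fewest summed reads in untreated PRC1CPM cells and Eomes the fourth fewest, against a median of 482. Next to them stood Igfbp5 with 11, Ctdspl with 31 and Hcrtr1 with 45. By the log2 ratio of summed reads Fgf9 was lowest of the 22 in both comparisons, at -2.19 after OHT and -4.01 in PRC1DEG cells. Its intervals, -4.21 to -0.17 and -6.57 to -1.44, reached over the medians of all baits, -0.83 and -1.63. Both PCGF2 contacts of Fgf9 were listed through Control cells alone, so the listing in part fixed its low ratio in PRC1DEG cells. By the median of single ratios with values under 3 reads set to 3, Fgf9 was 14th from the lowest after OHT and 11th in PRC1DEG cells. All its values after OHT and in PRC1DEG cells were under 3 reads and were raised to the floor. That median could therefore go no lower, and it cannot decide whether the rank holds. By summed reads Eomes was 18th from the lowest after OHT (-0.52) and 7th in PRC1DEG cells (-2.13), and by that median it was 19th in both. By the smaller Euclidean distance over both ratios, the baits most like Eomes of 15 with 3 or more PCGF2 contacts were Hoxb5 (0.433), Dlx2 (0.644) and Hoxb3 (0.687). Those most like Fgf9 of 16 were Nkx2-1 (1.79), Nptx1 (1.82) and Hoxd10 (1.88).

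**Figure D4:**
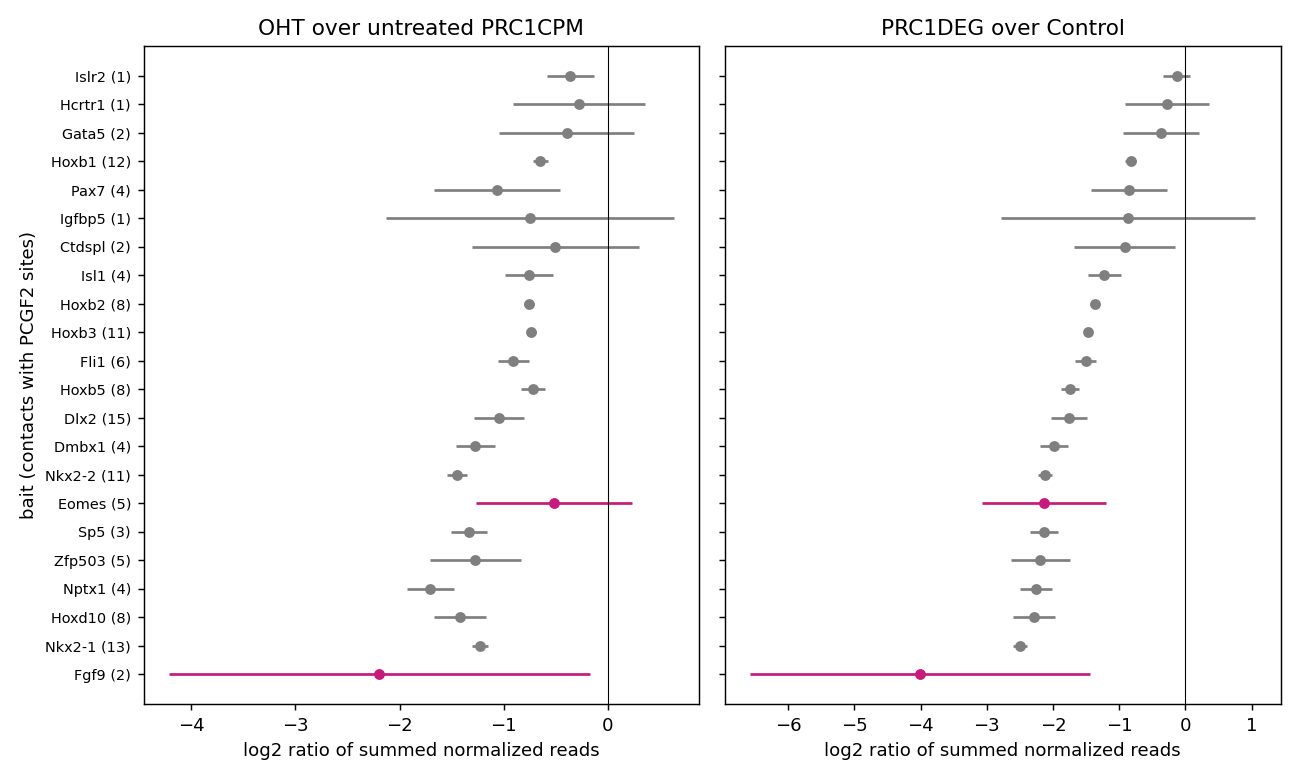
Log2 ratio of summed normalized reads at PCGF2 sites for each of 22 named baits (number of contacts in brackets), after OHT (left) and in PRC1DEG over Control cells (right), with 95% Wilson intervals that cover counting error only. Eomes and Fgf9 are in colour, and the Fgf9 intervals are the widest in the right panel.

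Contacts with PCGF2 sites beyond 10 Mb came from 8 named baits. The 3 of Eomes had 5 reads or fewer in every group, and the 21 of the other 7 baits had medians of 4 reads in untreated and 2 in OHT-treated PRC1CPM cells, and 6 in Control against 1 in PRC1DEG cells. Summed over these 21, the reads were 547, 200, 561 and 97.

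Genes of listed developmental families lay within 5 kb of 3 of the 7 PCGF2 ends, namely Zic1 with Zic4 and Foxl2 at both its fragments, and of 0 of the 14 other ends. For the other named baits it was 61 of 123 (49.6%) and 3 of 270 (1.11%). Of the 17 T-box factors listed, Eomes, Tbx20 and Tbx4 lay at other ends of a named bait, Eomes from the Ctdspl bait. None of the 22 fibroblast growth factor genes and none of the 5 receptor genes lay at an other end. Of 27 genes of the NODAL and BMP pathways, which act upstream of Eomes in the early embryo, 1 did, the activin receptor gene Acvr2b, reached by the Ctdspl bait. The share of all genes that lay at an other end was not computed, so these counts are no result about the listed families.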

How the data were processed

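CaptureC reads of 12 libraries were aligned to mm10 (GRCm38) with Bowtie2 and HiCUP, and interactions were scored with CHiCAGO on merged replicates, per the labels and methods. Versions of HiCUP and CHiCAGO are not given in the sources used here. As deposited, the signal of an interaction is a sum over its fragments of weighted reads, scaled by the authors to the reads on all captured promoters and their number. As deposited, each score is that of CHiCAGO. Further deposited columns mark PCGF2 sites. Whole weighted reads were recovered from the step of each column (tolerance 0.01, largest deviation 0.00151). The auxin columns held 2 steps, and both baits lay in the same set of 19 baits. The table holds no total per library, and filtered reads per bait that the study lists elsewhere were not used here.

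The genome and GENCODE M21 basic protein-coding TSSs gave positions, sequence and gene names. All PCGF2 contacts, the 3 other contacts with most reads per bait and those near listed genes were named, and further contacts were chosen after their values were seen. The members and lists were chosen with earlier results of these data known. Ratios carry 95% Wilson intervals, taken on the treated library's part of the reads of both libraries. The calculation was tested on simulated plain counts, without listing by score, read weights or spread between replicates. That test therefore does not cover intervals of contacts listed through a group where they are high. Python 3.11.15, numpy 2.4.6, pandas 2.3.3, pysam 0.24.0 and matplotlib 3.10.9 were used.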

Additional observations from a re-analysis of the deposited data

How the results depend on the processing

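The 42 alternative values for the summed ratios stayed inside the main Wilson interval in 38 cases. Some of these could not differ from the main value. Each PCGF2 contact of the pair is 1 fragment, so summing means per fragment changed nothing there. The filter of 10 or more weighted reads over the groups removed no other site of Eomes. The Eomes ratio at PCGF2 sites in PRC1DEG over Control cells (-2.13) was -0.51 as the median of single ratios with values under 3 reads set to 3, and -3.87 with a pseudocount of the smallest value, 0.000350. The Fgf9 ratio there (-4.01) was -1.24 as the median with values under 3 reads set to 3, the lowest that this floor allowed. The ratio of Eomes other sites after OHT (-0.08) turned to 0.070 when centred on the other sites of all named baits. Without the far contacts, the Ctdspl fragments alone gave Eomes -0.38 after OHT and -1.81 in PRC1DEG cells, and Lats2 alone gave Fgf9 -2.87 and -3.56. These single-site values and the ratio relative to the same bait's other sites (-0.43 and -2.30 for Eomes) were chosen after seeing the data.

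The number of called interactions moved with the threshold. With a score of at least 10, Eomes had 1 call in untreated and 0 in OHT-treated PRC1CPM cells and 0 in Control, and Fgf9 0 in Control and 0 in PRC1DEG. With at least 3, Eomes had 13 calls with OHT, 7 in Control and 2 in PRC1DEG, and Fgf9 1 in untreated PRC1CPM cells. With the mean score over fragments Eomes had 7 calls in untreated PRC1CPM cells and 4 after OHT. Listed genes with the TSS inside the other end numbered 1 in place of 3. No paired analysis was possible because the deposited columns pool the replicates and carry no replicate number, and for the same reason no replicate could be left out. Counts of 0 to 5 reads limit all far contacts, and a floor of 3 reads hides smaller differences.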
